A study of Rattus norvegicus with 9 samples.

Results

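Chemokines and their receptors were examined in RNA-seq of rat tibia. A gene was taken as a member when its symbol in the deposited count files was Ccl, Cxcl, Ccr, Cxcr, Xcl, Xcr or Ackr followed by a number, or was Cx3cl1 or Cx3cr1, and when at least 1 library held a count for it. The rule gave 51 members, 31 ligands and 20 receptors, among 18423 genes with any count. Another 3 listed genes of the family, Ccl20, Ccl26 and Cxcr1, had no count in any of the 9 libraries. Only 34 members, 16 ligands and 18 receptors, passed edgeR's filter on low counts and were tested.

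The libraries came from the left tibias of female Sprague-Dawley rats that arrived at 9 weeks of age and were operated on after 1 week of feeding. In the Sham group a small piece of fat beside the ovary was taken and the ovaries were left in place. Both ovaries were removed in the NE/Ovx group, which did not exercise, and in the RE/Ovx group. The RE/Ovx rats became used to a ladder for 2 weeks and then climbed it for 12 weeks, 5 days per week, with 4 sets of 3 climbs per day and a load on the tail that went from 50% to 100% of body weight. All bones were collected 24 weeks after the operation and freed of skin, muscles, ligaments and tendons, so that each library holds RNA of bone, marrow, cartilage, vessels and fat together. Each group had 3 rats, which are named here by the numbers in the sample titles.

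Chemokines are small secreted or membrane-bound proteins that bind membrane-spanning receptors on leukocytes and stromal cells and guide cell movement through G proteins of the inhibitory class. Inflammatory chemokines such as Ccl2, Ccl3 and Cxcl1 are made on demand and draw monocytes and neutrophils to a tissue, whereas homeostatic chemokines such as Ccl21, Cxcl13 and Cxcl14 are made steadily and place lymphocytes and other cells. In bone marrow this system holds blood stem cells and neutrophils in place and releases them to the blood, and several members, among them Ccl9, act on osteoclasts and their precursors. Atypical receptors, named Ackr, bind chemokines without starting this signal and remove them or carry them across cells.

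The libraries held between 12297992 and 16671533 counts per rat, and scaling factors for composition ran from 0.962 to 1.04. The members took 7346 to 11854 counts per rat, or 0.0566% to 0.0784% of the counts. The lists of leukocyte, bone, vessel and fat markers all had counts in every rat, although the macrophage marker Marco and the platelet marker Gp1bb were at 0 in all of them. Skeletal muscle genes were also present, with a summed level of 1760 to 5686 CPM in Sham, 4571 to 5272 in NE/Ovx and 1885 to 3096 in RE/Ovx. Interferon response genes stood apart in NE/Ovx rat 6, whose list level was 2.07 on a centred log2 scale against -0.88 to 0.43 in the other rats. Levels between groups are given as CPM, counts relative to the scaled library size, and levels between genes as the deposited FPKM, which also divides by gene length.

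A few members held most of the RNA of the family. Among the receptors, Cxcr4 had the highest level at 105 FPKM ± 9.69 (SD over 9 rats), followed by Cxcr2 at 45.3 ± 11.2, Ackr1 at 18.3 ± 1.86 and Ccr1 at 17.9 ± 3.0 FPKM. Cxcr4 is the receptor that retains blood stem cells and neutrophils in the marrow, and Cxcr2 is the receptor of neutrophils for the Cxcl1 group of ligands. The ranges over the 9 rats were apart between Cxcr4 and Cxcr2 and between Cxcr2 and Ackr1, and they overlapped between Ackr1 and Ccr1. From Ackr3 at 7.75 FPKM down to Xcr1 at 0.148 FPKM neighbours in the order overlapped, except Ccr3 and Cxcr3. Cxcr4 and Cxcr2 together made up 47.0% of the members' CPM.

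Among the ligands, Ccl6 and Cxcl14 stood above the rest. Ccl6, a ligand of Ccr1 made by myeloid cells, had 114 FPKM ± 26.8 (SD, n = 9), and Cxcl14, a homeostatic chemokine, had 58.6 ± 18.2. Their ranges over the rats overlapped. The next ligand, the membrane-bound Cxcl16, had 4.58 FPKM, apart from Cxcl14, and Cxcl6, Ccl5, Ccl24 and Ccl3 followed at 4.48, 4.33, 3.31 and 3.28 FPKM. Inflammatory ligands were found at both ends of the order, with Ccl6 the highest of all and Ccl2 at 1.77 FPKM. The interferon-induced Cxcl10 had 1.25 FPKM and the neutrophil-attracting Cxcl1 had 0.791 FPKM. From Cxcl16 down to the lowest tested ligand, Ccl9 at 0.714 FPKM, every neighbouring pair in the order overlapped.

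**Figure D1:**
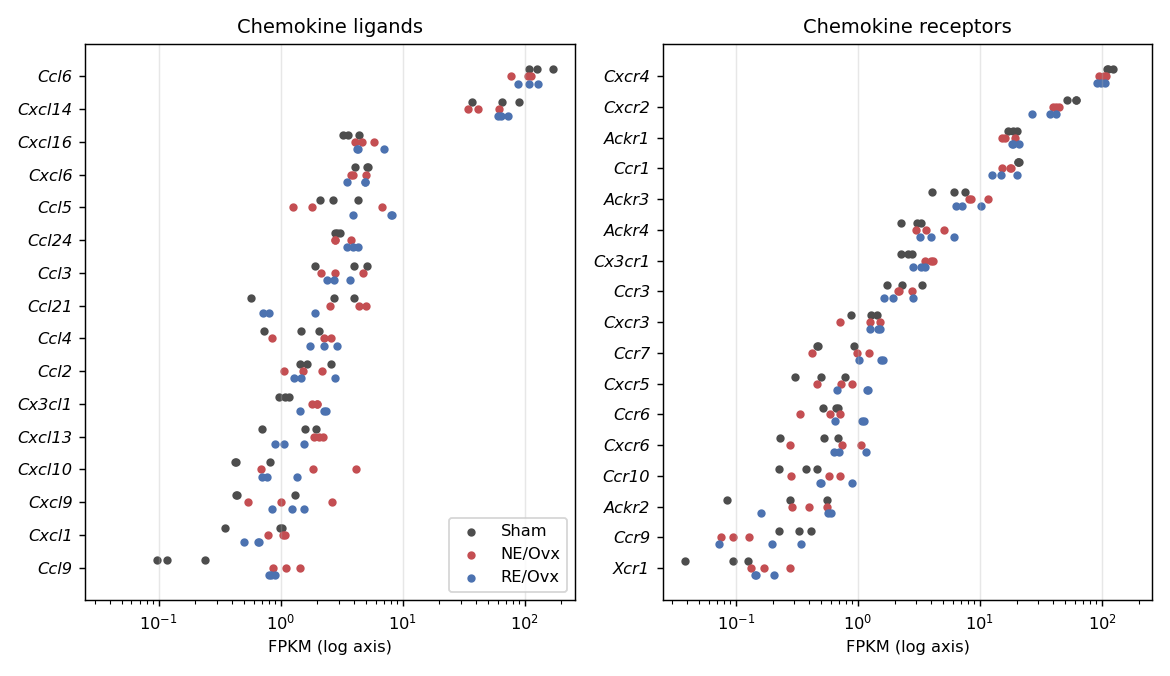
Level of 16 tested ligands (left) and 17 tested receptors (right) in FPKM on a log axis, with 1 point for each rat coloured by group. Ccl6, Cxcl14, Cxcr4 and Cxcr2 lie at the top of their panels, and Ccl9 is the ligand whose Sham points lie farthest below those of both ovariectomized groups.

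Summed over the 20 receptors, the level was 518 CPM ± 37.9 in Sham, 444 ± 14.3 in NE/Ovx and 416 ± 34.4 in RE/Ovx (SD, n = 3 each). The Sham rats ran from 477 to 552 and lay above all ovariectomized rats, which ran from 377 to 454. Cxcr2 and Cxcr4 held this difference, since the other 18 receptors summed to 155 CPM ± 21.9 in Sham, 155 ± 11.8 in NE/Ovx and 155 ± 5.74 in RE/Ovx. The sum over the 31 ligands was 202 CPM ± 54.7 in Sham, 164 ± 26.2 in NE/Ovx and 196 ± 14.2 in RE/Ovx, and the 3 groups overlapped. Because whole bones were sequenced, fewer cells of a type and less RNA per cell cannot be told apart in these sums or in any level below.

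The comparison of NE/Ovx with Sham asks what loss of the ovaries does to the family, and 1 of the 34 tested members passed an adjusted p of 0.05 in edgeR's quasi-likelihood test, against 1.23% of all tested genes. That member was the ligand Ccl9, which rose and which passed the filter on low counts only through the ovariectomized rats. The study's own thresholds take p under 0.05 before adjustment and a fold change of more than 1.2 or less than 0.83. The study set them on DESeq2 results, whereas here they are set on edgeR results unless another fit is named. At these thresholds 5 members were higher (Ccl9, Cx3cl1, Cxcl10, Cx3cr1 and Ackr3) and 3 were lower (Cxcr2, Ccl6 and Ccr9). The corresponding shares of all tested genes were 11.3% higher and 6.52% lower, so 5 and 3 of 34 members (14.7% and 8.82%) were near the background. Rats of the 2 groups did not overlap for 9 members (26.5%), beside 25.3% of all genes. The median log2 fold change was 0.30 for the ligands and 0.14 for the receptors, beside 0.0029 for all genes. It depended on which low-count members were included and was -0.08 over the 22 members with at least 10 counts in each library.

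The comparison of RE/Ovx with NE/Ovx asks what climbing changed after ovariectomy. No member passed the adjusted threshold in edgeR, and no gene did among all those tested (0%). Before adjustment 2 members were under a p of 0.05, Ccl21 lower and Ccr6 higher, and both also passed the study's fold threshold, as did 4.68% of all tested genes. DESeq2 on all 9 libraries called 4 genes higher and 1 lower, none of them a member. Limma called no member either. DESeq2 on these 2 groups alone called 26 genes higher and 125 lower of 18170, with Ccl21 the only member among them. Groups did not overlap for 4 members, Ccl21, Cxcl13, Cxcl1 and Cx3cr1, all lower in RE/Ovx. This was 11.8% of the tested members, beside 11.6% of all genes in either direction. The medians were 0.05 for the ligands and 0.11 for the receptors, beside 0.0079 for all genes.

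Setting RE/Ovx against Sham, 3 of 34 members passed the adjusted threshold (8.82%), beside 8.06% of all tested genes. Ccl9 and Cx3cl1 rose and Cxcr2 fell. At the study's thresholds 6 members passed (17.6%), with Ccr7 higher and Ccr1 and Cxcr4 lower in addition, beside 23.2% of all genes. They split into 3 higher and 3 lower, and into 5 higher and 2 lower with scaling by library totals. Groups did not overlap for 9 members, beside 27.8% of all genes. The medians were 0.17 for the ligands and 0.31 for the receptors, beside -0.0078 for all genes, and the median of all members was -0.0136 with a minimum of 10 counts in each library. Both comparisons with Sham use the same 3 Sham rats, and the comparisons of NE/Ovx with Sham and with RE/Ovx use the same 3 NE/Ovx rats, so their values are not independent and are given side by side below. Residual spread was estimated between rats, and the p values measure only the spread between these 9 animals.

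**Figure D2:**
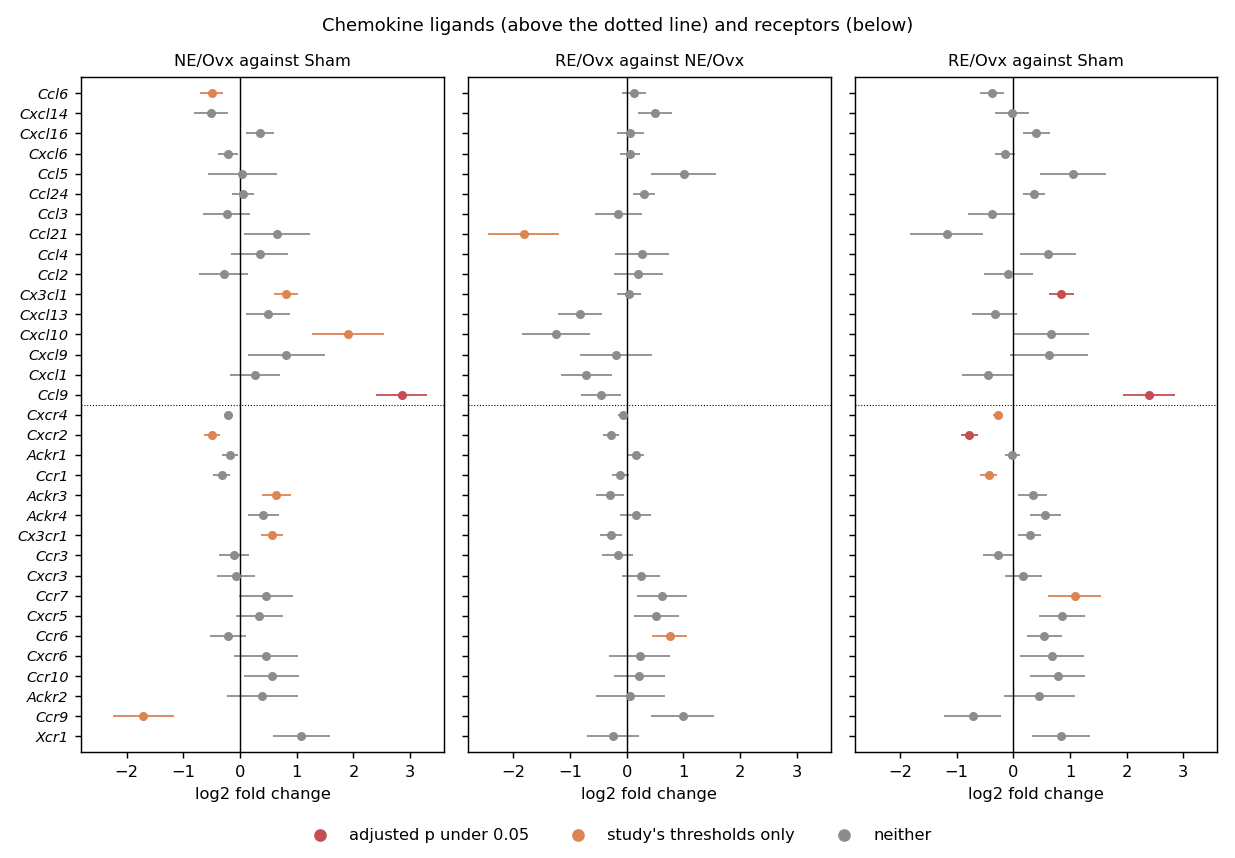
Log2 fold change with its standard error for 33 tested members in the 3 comparisons, ligands above the dotted line and receptors below. Coloured points mark members past the adjusted threshold or only past the study's thresholds. Ccl9 lies at 2.85 and 2.40 in the comparisons with Sham, and no member passed the adjusted threshold between RE/Ovx and NE/Ovx.

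Ccl9 is a ligand of Ccr1 that is made by myeloid cells and osteoclasts and promotes osteoclast survival and precursor recruitment. Its level was 0.333, 0.138 and 0.161 CPM in Sham rats 12, 7 and 8. It was 1.17, 1.94 and 1.52 CPM in NE/Ovx rats 6, 8 and 9 and 1.21, 1.07 and 1.09 CPM in RE/Ovx rats 3, 5 and 8. All 6 ovariectomized rats lay above all 3 Sham rats, and the ovariectomized groups overlapped. The log2 fold change was 2.85 (SE 0.44, a 7.20-fold difference, adjusted p = 0.0239 by edgeR) for NE/Ovx against Sham. In RE/Ovx, relative to Sham, it was 2.40 (SE 0.45, 5.26-fold, adjusted p = 0.0177).

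The difference between the ovariectomized groups for Ccl9 was -0.45 with an interval of 2 standard errors from -1.15 to 0.25. The reads behind Ccl9 were few, with 4, 2 and 2 counts in the Sham rats and 14 to 28 in the others. Its entry into the tested set thus came through the groups where it was high. In edgeR without the filter on low counts, its adjusted p was 0.0217 for NE/Ovx against Sham. The adjusted p for NE/Ovx against Sham rose above 0.05 without Sham rat 7 (0.0934), Sham rat 8 (0.0503), NE/Ovx rat 8 (0.0983) or NE/Ovx rat 9 (0.0658), with log2 fold changes of 2.59 to 3.29 over all left-out rats. For RE/Ovx against Sham it did so without Sham rat 7 (0.0561), RE/Ovx rat 5 (0.0637) or RE/Ovx rat 8 (0.0635).

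The bases before the annotated start of Ccl9 are shown because it had the largest fold change against Sham among the tested members. The window of 250 bases is from the RefSeq promoter table (GRCr8, chr10:68868878-68869127, minus strand), and capitals mark a match, on the other strand, to the NF-kB letters searched (GGG, any 3 bases, TTCC), 106 to 97 bases before the start.
Ccl9 promoter: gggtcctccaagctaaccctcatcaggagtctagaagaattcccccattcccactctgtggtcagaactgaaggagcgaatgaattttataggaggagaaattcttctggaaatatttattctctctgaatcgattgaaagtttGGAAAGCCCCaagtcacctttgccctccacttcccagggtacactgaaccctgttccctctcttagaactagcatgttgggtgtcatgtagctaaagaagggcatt
Such a match was present in 9 of the 37 members with a promoter in the table and in 4.53% of 33469 promoters. A match is a description of letters and not of binding.

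No other tested ligand of Ccr1 passed the adjusted threshold. Ccl6, its neighbour on the chromosome and a ligand of the same receptor, had 45.4, 61.7 and 37.7 CPM in the Sham rats. It had 26.7, 36.3 and 39.3 CPM in NE/Ovx and 37.7, 30.6 and 43.2 CPM in RE/Ovx. The groups overlapped, and the log2 fold change for NE/Ovx against Sham was -0.50 (SE 0.21, adjusted p = 0.207 by edgeR). In the GRCr8 gene table Ccl5, Ccl9, Ccl6, Ccl3 and Ccl4 are consecutive protein-coding genes, and Ccl6 and Ccl3 overlap an uncharacterised locus. Ccl3, Ccl4 and Ccl5, inflammatory ligands, had log2 fold changes of -0.24 (SE 0.42), 0.34 (SE 0.50) and 0.04 (SE 0.60) for NE/Ovx against Sham, all with overlapping groups.

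Ccr1, a receptor of monocytes, neutrophils and osteoclast precursors, was at 38.7, 40.4 and 38.4 CPM in the Sham rats. It was at 28.1, 32.9 and 33.0 CPM in NE/Ovx and at 27.5, 23.2 and 35.9 CPM in RE/Ovx. Every ovariectomized rat was below every Sham rat. The log2 fold changes were -0.32 (SE 0.15, adjusted p = 0.259) in NE/Ovx and -0.44 (SE 0.15, adjusted p = 0.0994) in RE/Ovx, each set against Sham in edgeR, so the receptor did not pass the adjusted threshold.

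Marker lists of cells that can make Ccl9 were read beside it. Of 16 tested monocyte and macrophage markers none passed the adjusted threshold in NE/Ovx relative to Sham in edgeR, where 1 was higher and 1 lower by the study's criteria, with a median of 0.09. For RE/Ovx against Sham, 2 of them fell, Fcgr1a by 0.64 and Itgam by 0.69 on the log2 scale. Their summed level was 941 to 1219 CPM in Sham, 964 to 1013 in NE/Ovx and 845 to 958 in RE/Ovx. Of 10 osteoclast markers, 0 passed and 2 were lower at the study's thresholds for NE/Ovx against Sham (median 0.06). In RE/Ovx against Sham 2 fell, Itgb3 and Oscar, while 5 of the 10 were above 0 and the median was 0.01. Osteoclast markers summed to 2449 to 3345 CPM in Sham, 2438 to 3162 in NE/Ovx and 2254 to 3099 in RE/Ovx, which overlap.

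Against Sham, most adipocyte markers moved in the same direction as Ccl9. Of 10 tested, 4 rose in NE/Ovx against Sham (median 1.62) and 9 in RE/Ovx against Sham (median 2.0), Plin1 by 2.97 and 3.63. At the study's thresholds 9 were higher and 1 was lower in NE/Ovx than in Sham. The adipocyte markers summed to 270 to 420 CPM in Sham, 508 to 634 in NE/Ovx and 681 to 829 in RE/Ovx. For RE/Ovx against NE/Ovx all 10 were above 0 (median 0.44), whereas Ccl9 was at -0.45. Osteoblast and osteocyte markers summed to 6539 to 9215 CPM in Sham, 15751 to 26214 in NE/Ovx and 17760 to 27846 in RE/Ovx, without overlap between Sham and the others. Most of that sum was Col1a1, with means of 5983 CPM in Sham, 19405.5 in NE/Ovx and 19940 in RE/Ovx. The centred list level overlapped between Sham (-0.70 to -0.12) and NE/Ovx (-0.40 to 0.41), and was 0.16 to 0.38 in RE/Ovx. In each comparison with Sham, 8 of the 11 tested bone markers were above 0. The part of fat and bone cells in the level of Ccl9 was not tested.

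Cx3cl1, or fractalkine, is a membrane-bound chemokine of endothelial and other cells that holds and attracts monocytes. Its level was 4.50, 4.19 and 3.63 CPM in the Sham rats, 6.76, 7.33 and 7.52 CPM in NE/Ovx and 5.32, 8.71 and 8.16 CPM in RE/Ovx. All ovariectomized rats were above all Sham rats, and the groups with and without exercise overlapped. In edgeR the log2 fold change of RE/Ovx against Sham was 0.85 (SE 0.22, 1.80-fold, adjusted p = 0.0427 by edgeR), and for NE/Ovx against Sham it was 0.81 (SE 0.22, 1.75-fold, adjusted p = 0.0891).

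That call depended on the rats and the fit. For RE/Ovx against Sham the adjusted p of Cx3cl1 was above 0.05 without Sham rat 12 (0.0683), Sham rat 7 (0.0913), Sham rat 8 (0.1), RE/Ovx rat 5 (0.161) or RE/Ovx rat 8 (0.147), with edgeR (0.0889) or DESeq2 (0.0516) on the 2 groups alone, and with limma on genes of at least 1 FPKM (0.0553). DESeq2 on all 9 libraries also called Cx3cl1 for NE/Ovx against Sham (adjusted p = 0.0305). The difference between RE/Ovx and NE/Ovx was 0.04 with an interval of 2 standard errors from -0.38 to 0.45.

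Its only receptor among the members, Cx3cr1, marks monocytes, macrophages and osteoclast precursors. It was at 3.08, 3.85 and 3.47 CPM in the Sham rats, 5.43, 5.19 and 4.79 CPM in NE/Ovx and 4.37, 3.74 and 4.56 CPM in RE/Ovx. The NE/Ovx rats were above all rats of both other groups, whereas Sham and RE/Ovx overlapped. Cx3cr1 was 0.56 higher on the log2 scale in NE/Ovx than in Sham (SE 0.20, adjusted p = 0.156 by edgeR) and 0.28 higher in RE/Ovx than in Sham (SE 0.20, adjusted p = 0.411). The value for RE/Ovx against NE/Ovx was -0.28 (SE 0.19, adjusted p = 0.968), so no comparison of the receptor passed the adjusted threshold. In the GRCr8 table Cx3cr1 overlaps an unnamed locus, and reads of both cannot be told apart where the counting ignored the strand, which no source used here states.

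Endothelial markers moved with Cx3cl1 in the comparisons with Sham. Of 10 tested, 2 rose in RE/Ovx against Sham, Tek by 0.46 and Pecam1 by 0.62 on the log2 scale. In NE/Ovx against Sham none passed the adjusted threshold in edgeR and 3 were higher at the study's thresholds. Their summed level was 441 to 454 CPM in Sham, 484 to 524 in NE/Ovx and 508 to 658 in RE/Ovx, without overlap between Sham and the others. Against Sham their medians were 0.17 in NE/Ovx and 0.39 in RE/Ovx, below the 0.81 and 0.85 of Cx3cl1. For RE/Ovx against NE/Ovx 9 of the 10 markers were above 0 (median 0.18), whereas Cx3cl1 was at 0.04. None of the markers passed the adjusted threshold there, and 2 were higher at the study's thresholds. The part of vessels in the level of Cx3cl1 was not tested.

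**Figure D3:**
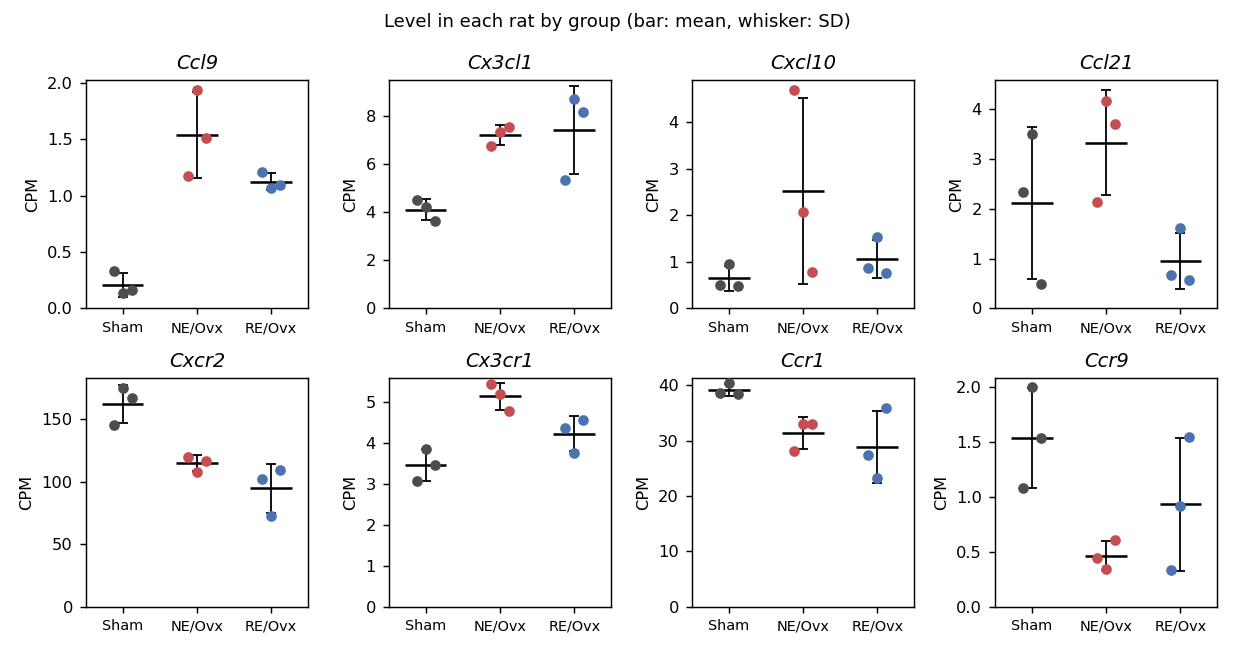
CPM in each of the 9 rats for 4 ligands (top) and 4 receptors (bottom), with the group mean as a bar and the SD as a whisker. Sham rats lie below all ovariectomized rats for Ccl9 and Cx3cl1 and above them for Cxcr2 and Ccr1, and NE/Ovx rats 6 and 8 are the highest for Cxcl10.

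Cxcr2, the main receptor through which neutrophils leave the marrow, was lower in the ovariectomized rats than in the Sham rats. Its level was 145, 175 and 167 CPM in the Sham rats, 120, 107 and 117 CPM in NE/Ovx and 102, 72.4 and 109 CPM in RE/Ovx. Every Sham rat was above every ovariectomized rat, and RE/Ovx rat 5 was the lowest. In RE/Ovx against Sham it fell by 0.78 on the log2 scale (SE 0.14, adjusted p = 0.0168 by edgeR). In NE/Ovx against Sham the value was -0.50 (SE 0.14, adjusted p = 0.104), and DESeq2 on all 9 libraries called it there (adjusted p = 0.0267). The RE/Ovx call held under all 10 other settings and without each of the 6 rats in turn, where the highest adjusted p was 0.0464 and the log2 fold change ran from -0.89 to -0.62. RE/Ovx and NE/Ovx differed by -0.27, with an interval of 2 standard errors from -0.56 to 0.01.

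Neutrophil markers, a list that does not hold Cxcr2, moved with it. All 17 tested markers had a negative fold change in RE/Ovx against Sham and 11 fell (median -0.73), Fpr1 by 1.12 and Camp, an antimicrobial granule protein, by 0.97 on the log2 scale. In NE/Ovx against Sham the median was -0.52, none passed the adjusted threshold in edgeR and 10 were lower at the study's thresholds. In RE/Ovx against NE/Ovx the median was -0.25, with none past the adjusted threshold and 3 lower at the study's thresholds. The markers summed to 8061 to 13480 CPM in Sham, 6042 to 6923 in NE/Ovx and 4400 to 6826 in RE/Ovx. On the centred log2 scale, the list level was 0.15 to 0.73 in Sham, -0.15 to -0.03 in NE/Ovx and -0.69 to -0.12 in RE/Ovx. Cxcr2 on its own ran from 0.28 to 0.54, from -0.16 to -0.0023 and from -0.73 to -0.13. The part of neutrophil number in the level of Cxcr2 was not tested.

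Among the members, no tested ligand of Cxcr2 passed either threshold in any comparison. Ligands that the naming rule leaves out were not counted here. Cxcl6 was the highest of these members at 14.0 to 17.4 CPM in Sham, 12.4 to 16.4 in NE/Ovx and 11.2 to 16.4 in RE/Ovx. Its log2 fold changes against Sham were -0.21 (SE 0.18) in NE/Ovx and -0.15 (SE 0.18) in RE/Ovx. Cxcl1 was at 0.734, 0.968 and 1.03 CPM in NE/Ovx and at 0.606, 0.611 and 0.450 CPM in RE/Ovx, without overlap. Its log2 fold change was -0.72 (SE 0.45, adjusted p = 0.968 by edgeR), and the Sham rats, at 0.333 to 0.967 CPM, overlapped both groups. Cxcl2 and Cxcl3 had at most 10 and 3 counts in a library and were below the filter.

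Cxcr4, the most abundant receptor, was at 193, 198 and 214 CPM in the Sham rats, 184, 174 and 165 CPM in NE/Ovx and 167, 156 and 175 CPM in RE/Ovx. All ovariectomized rats were below all Sham rats by a small margin. The log2 fold change was -0.21 (SE 0.08, adjusted p = 0.198) in NE/Ovx and -0.28 (SE 0.08, adjusted p = 0.0684) in RE/Ovx, each set against Sham in edgeR. DESeq2 on all 9 libraries called the second (adjusted p = 0.0225). Ccr3, the receptor of eosinophils, was at 16.0 CPM ± 5.51 in Sham, 15.0 ± 2.18 in NE/Ovx and 13.4 ± 4.04 in RE/Ovx (SD, n = 3 each), and the groups overlapped. Of 12 tested markers of eosinophils, basophils and mast cells, none passed for NE/Ovx against Sham in edgeR, and by the study's criteria 2 were higher and 1 lower. In RE/Ovx against Sham Cpa3 rose and Ms4a2 fell.

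**Figure D4:**
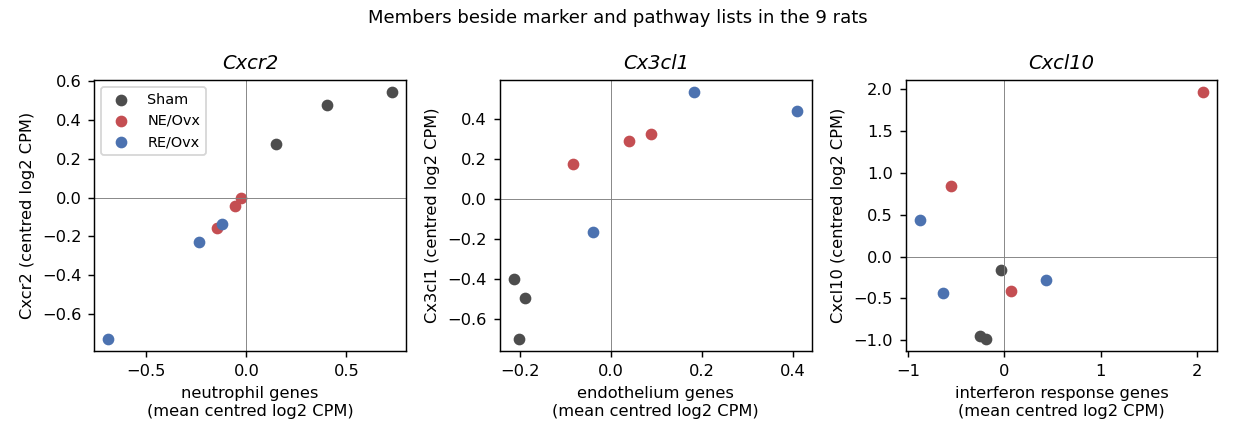
Centred log2 CPM of Cxcr2, Cx3cl1 and Cxcl10 in each rat against the mean centred log2 CPM of neutrophil, endothelium and interferon response genes. Sham rats lie at the upper right for Cxcr2 and at the lower left for Cx3cl1, and NE/Ovx rat 6 alone lies at the upper right for Cxcl10, with an interferon list level of 2.07.

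Cxcl9, Cxcl10 and Cxcl11 are induced by interferon and attract activated T cells and NK cells through Cxcr3. Cxcl10 was at 0.500, 0.963 and 0.484 CPM in the Sham rats, 4.70, 2.08 and 0.788 CPM in NE/Ovx and 0.875, 1.53 and 0.771 CPM in RE/Ovx. NE/Ovx rat 6 held the highest level, and NE/Ovx rat 9 lay within the range of the Sham rats. NE/Ovx exceeded Sham by a log2 fold change of 1.91 (SE 0.64, adjusted p = 0.138 by edgeR). Leaving out NE/Ovx rat 6 gave 1.10, with an adjusted p of 0.387. The value for RE/Ovx against NE/Ovx was -1.24 (SE 0.60, adjusted p = 0.947).

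Cxcl9 was at 0.250, 0.756 and 0.242 CPM in Sham, 1.47, 0.553 and 0.303 CPM in NE/Ovx and 0.471, 0.688 and 0.835 CPM in RE/Ovx. NE/Ovx rat 6 was again the highest and the groups overlapped. Its log2 fold change for NE/Ovx against Sham was 0.82 (SE 0.67, adjusted p = 0.528 by edgeR). The receptor Cxcr3 was at 1.5, 2.20 and 2.42 CPM in Sham, 1.17, 2.49 and 2.12 CPM in NE/Ovx and 2.42, 2.06 and 2.44 CPM in RE/Ovx, and NE/Ovx rat 6 was its lowest rat. Of 25 tested interferon response genes, a list that holds no chemokine, 0 passed the adjusted threshold in edgeR in any comparison. At the study's thresholds 9 were higher in NE/Ovx than in Sham (median 0.95) and 10 lower in RE/Ovx than in NE/Ovx (median -1.42). For RE/Ovx against Sham 0 passed (median -0.03). The NE/Ovx rats differed widely, with a centred list level of 2.07 in rat 6, -0.56 in rat 8 and 0.07 in rat 9. Sham ran from -0.25 to -0.04, so the NE/Ovx counts and medians cannot be read apart from rat 6.

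The starts of Cxcl10 and Cxcl9 are shown because both are interferon-induced neighbours with different letters before the start. The windows are from the RefSeq promoter table (GRCr8, chr14:15988816-15989065, plus strand, and chr14:16006916-16007165, plus strand). In Cxcl10, capitals mark the interferon-stimulated response element (GAAA, any 2 bases, GAAA) at 243 to 234 bases before the start, NF-kB matches at 187 to 178 and at 128 to 118, where 2 matches overlap, and the AP-1 letters TGANTCA at 96 to 90.
Cxcl10 promoter: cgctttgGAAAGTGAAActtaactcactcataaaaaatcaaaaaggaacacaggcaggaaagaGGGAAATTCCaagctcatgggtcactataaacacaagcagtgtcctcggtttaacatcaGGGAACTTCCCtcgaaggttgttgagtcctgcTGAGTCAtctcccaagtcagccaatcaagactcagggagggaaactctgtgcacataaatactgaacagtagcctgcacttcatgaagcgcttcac
Cxcl9 promoter: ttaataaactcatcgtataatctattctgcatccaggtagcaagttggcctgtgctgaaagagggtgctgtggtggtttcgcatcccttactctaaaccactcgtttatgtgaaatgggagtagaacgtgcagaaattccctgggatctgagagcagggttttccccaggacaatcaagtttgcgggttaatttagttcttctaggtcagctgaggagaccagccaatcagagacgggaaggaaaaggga
Cxcl9 held none of these letters in its window on either strand. The interferon element was found in 2 of 37 members, Cxcl10 and Ccl19, and in 3.41% of all promoters, and the AP-1 letters in 7 of 37 and 6.34%. The estrogen response element (GGTCA, any 3 bases, TGACC) was in no member and in 0.0239% of promoters. The windows of Cx3cl1 and Cxcr2 held no match to these 4 motifs. In the GRCr8 table Cxcl10 and Cxcl11 overlap Art3, so reads of these genes could be shared.

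Genes that commonly induce chemokines were read from a list of cytokines and NF-kB targets. Tnf and Il17a were listed at 0 in all 9 libraries. Of 14 tested genes, none passed the adjusted threshold in edgeR in any comparison. At the study's thresholds 3 were higher and 1 was lower in NE/Ovx than in Sham, 0 and 1 in RE/Ovx than in NE/Ovx, and 2 and 0 in RE/Ovx than in Sham. Tnfaip3, an inhibitor of this pathway, had 0.40 (SE 0.13, adjusted p = 0.129) and Nfkb2 0.33 (SE 0.11, adjusted p = 0.136) as log2 fold changes for NE/Ovx against Sham.

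Homeostatic ligands and the receptors of lymphocytes form the next group. Ccl21 draws T cells and dendritic cells that carry Ccr7. It was at 2.33, 3.51 and 0.484 CPM in the Sham rats, 2.13, 4.15 and 3.70 CPM in NE/Ovx and 0.673, 1.60 and 0.578 CPM in RE/Ovx. The RE/Ovx rats were below all NE/Ovx rats, while Sham spanned both groups. RE/Ovx differed from NE/Ovx by -1.82 on the log2 scale (SE 0.63, adjusted p = 0.921 by edgeR), and DESeq2 on these 2 groups gave an adjusted p of 0.0370.

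Ccr7 itself was at 0.583, 1.17 and 0.564 CPM in Sham, 0.514, 1.18 and 1.52 CPM in NE/Ovx and 1.88, 1.22 and 1.86 CPM in RE/Ovx. The RE/Ovx rats were above all Sham rats and overlapped NE/Ovx. RE/Ovx exceeded Sham by 1.08 on the log2 scale (SE 0.47, adjusted p = 0.179 by edgeR). Ccr7, like Ccr6, overlaps an uncharacterised locus in the GRCr8 table. Ccl19, the other ligand of Ccr7, had at most 4 counts in a library and was below the filter.

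Ccr6, a receptor of B cells and helper T cells whose ligand Ccl20 had no count, was at 3.50, 4.68 and 4.35 CPM in Sham. It was at 2.20, 4.63 and 3.94 CPM in NE/Ovx and at 7.27, 4.20 and 6.81 CPM in RE/Ovx. RE/Ovx rats 3 and 8 were above all other rats, and RE/Ovx rat 5 lay within the other groups. The value was 0.76 (SE 0.31, adjusted p = 0.924 by edgeR) for RE/Ovx against NE/Ovx.

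Cxcl13, which guides B cells through Cxcr5, was at 2.5, 2.08 and 2.36 CPM in NE/Ovx and at 1.01, 1.76 and 1.16 CPM in RE/Ovx, without overlap. RE/Ovx differed by -0.83 on the log2 scale (SE 0.39, adjusted p = 0.942 by edgeR), and Sham, at 0.806 to 2.25 CPM, overlapped both. Against Sham, Cxcr5 had log2 fold changes of 0.34 (SE 0.41) in NE/Ovx and 0.86 (SE 0.41, adjusted p = 0.215) in RE/Ovx. Ccr9, a receptor of thymus and gut homing, was at 1.08, 1.99 and 1.53 CPM in Sham, 0.441, 0.346 and 0.606 CPM in NE/Ovx and 0.336, 0.917 and 1.54 CPM in RE/Ovx. The NE/Ovx rats were below all Sham rats, and the RE/Ovx rats spread over both ranges. NE/Ovx differed from Sham by -1.70 on the log2 scale (SE 0.54, adjusted p = 0.126 by edgeR).

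B cell markers were higher in the ovariectomized groups. Of 16 tested, 4 rose in RE/Ovx against Sham (median 1.21), among them Blnk by 1.46 and Cd22 by 0.94. In NE/Ovx against Sham none passed the adjusted threshold in edgeR and 12 were higher at the study's thresholds (median 1.04). B cell markers summed to 263 to 741 CPM in Sham, 885 to 1407 in NE/Ovx and 1066 to 1302 in RE/Ovx, and Sham rat 12 had the lowest list level at -1.82. T cell markers (14 tested) had none past the adjusted threshold in edgeR, and at the study's thresholds 1 was higher in NE/Ovx than in Sham and 2 in RE/Ovx than in Sham. Of 9 NK cell markers, Nkg7 fell in RE/Ovx against Sham, while 7 of the 9 were above 0 (median 0.47) and 1 was higher at the study's thresholds. None passed the adjusted threshold in the other comparisons. Dendritic cell markers (10 tested) had none past the adjusted threshold in edgeR, with 3 higher at the study's thresholds in RE/Ovx than in NE/Ovx. The part of these cells in the levels of Ccr6, Ccr7, Cxcr5 and Ccr9 was not tested.

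Cxcl14 and the atypical receptors were read together. Cxcl14 was at 61.2, 152 and 106 CPM in Sham, 67.0, 54.2 and 101 CPM in NE/Ovx and 103, 97.4 and 113 CPM in RE/Ovx. The RE/Ovx rats were close together and the Sham rats far apart. The log2 fold change was -0.52 (SE 0.30, adjusted p = 0.358) for NE/Ovx against Sham and 0.50 (SE 0.30, adjusted p = 0.968) for RE/Ovx against NE/Ovx in edgeR. Ackr3, a scavenging receptor, was at 16.5, 13.8 and 8.78 CPM in Sham, 17.4, 17.9 and 25.3 CPM in NE/Ovx and 13.5, 15.0 and 20.9 CPM in RE/Ovx. NE/Ovx lay above Sham and RE/Ovx overlapped both. Its log2 fold change for NE/Ovx against Sham was 0.64 (SE 0.25, adjusted p = 0.196 by edgeR). Ackr1, which carries chemokines on erythroid and endothelial cells, varied little, at 21.4 CPM ± 2.29 in Sham, 18.9 ± 2.66 in NE/Ovx and 21.2 ± 1.87 in RE/Ovx (SD, n = 3 each).

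Downstream of the receptors, 32 genes of G protein, arrestin and migration signalling were tested. None passed the adjusted threshold for NE/Ovx against Sham in edgeR, and by the study's criteria 2 were higher and 2 lower. None passed for RE/Ovx against NE/Ovx either, with 0 higher and 2 lower. In RE/Ovx against Sham 1 rose and 4 fell. Gnai1, an inhibitory G protein subunit, rose by 0.77 (SE 0.17, adjusted p = 0.0289), Arrb2, an arrestin that ends receptor signalling, fell by 0.51 (SE 0.12, adjusted p = 0.0304), and Jak2 fell by 0.32 (SE 0.08, adjusted p = 0.0368). The list's median was -0.09 in NE/Ovx and -0.20 in RE/Ovx relative to Sham, and -0.11 between the ovariectomized groups. The summed level was 4864 to 5087 CPM in Sham, 4301 to 4711 in NE/Ovx and 3903 to 4381 in RE/Ovx.

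Of 10 chemokine-like genes that the naming rule leaves out, Pitpnm3, described as a receptor for a macrophage chemokine, rose in NE/Ovx against Sham by 1.46 (SE 0.22, adjusted p = 0.0238 by edgeR). It also rose in RE/Ovx against Sham by 1.46 (SE 0.22, adjusted p = 0.0113). Rarres2, or chemerin, an attractant that fat cells secrete, rose in RE/Ovx against Sham by 1.2 (SE 0.30, adjusted p = 0.0409). Its value for NE/Ovx against Sham was 0.97 (SE 0.31, adjusted p = 0.125). By the study's criteria 3 of the 10 were higher and 2 lower in NE/Ovx than in Sham (median 0.04). In RE/Ovx against Sham 4 were higher and 0 lower (median 0.51). None of the 10 passed for RE/Ovx against NE/Ovx, at the adjusted or at the study's thresholds.

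The other 17 members were below the filter on low counts. The 15 ligands were Ccl17, Cxcl17, Ccl11, Xcl1, Cxcl2, Ccl7, Ccl12, Cxcl11, Ccl27, Ccl19, Ccl25, Ccl1, Ccl22, Cxcl3 and Ccl28, and the 2 receptors were Ccr4 and Ccr8. Their counts over all 9 libraries summed to between 1, for Ccr8, and 57, for Ccl11. In edgeR without that filter none of the 17 passed the adjusted threshold in any comparison (lowest adjusted p = 0.206). At the study's thresholds Cxcl17 was higher in NE/Ovx than in Sham in that fit, and Ccl25 was lower in both ovariectomized groups than in Sham. In DESeq2 on the 2 groups without a filter, none of those tested passed the study's thresholds in any comparison. That fit gave most of them no adjusted p, so it cannot decide at the adjusted threshold. Only Cxcl17 and Ccl11 had a value for RE/Ovx against NE/Ovx, and only Ccl11 for RE/Ovx against Sham (lowest adjusted p = 0.524 by DESeq2). Xcl1, the ligand of the tested receptor Xcr1, was among the 17. Xcr1 had a log2 fold change of 1.08 (SE 0.50, adjusted p = 0.261 by edgeR) for NE/Ovx against Sham. All NE/Ovx rats, at 0.553 to 1.17 CPM, were above all Sham rats, at 0.167 to 0.550 CPM. These levels came from few reads. Sham rats 12, 7 and 8 had 2, 8 and 5 counts, and NE/Ovx rats 6, 8 and 9 had 16, 8 and 12. Like Ccl9, Xcr1 entered the tested set only through ovariectomized rats.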

How the data were processed

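RNA-seq was carried out on 9 left tibias, 3 per group. For every rat, the authors deposited per gene a raw read count in whole numbers and an FPKM value. Upstream tools in the submitters' processing notes are HISAT2, Bowtie2, StringTie, Trimmomatic and DESeq, with no versions, and the build is Rnor_6.0. Strand use and the handling of reads shared by related genes are not given there or in the methods. FPKM, deposited by the authors, was used for levels between genes and for limma. The 9 libraries were fitted together by group, without covariates, using edgeR 4.0.16 under R 4.3.3 (filterByExpr, TMM, quasi-likelihood test), and the Benjamini-Hochberg adjustment ran over the 14520 genes tested. The scripts were tested on simulated data. CPM uses the effective library size. A list level is the mean of its genes' log2 CPM (prior count 2) after centring each gene. Intervals span 2 standard errors each side.

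Of the family, 2 genes are not reported here. Of these, 1 was left out of every count and 1 is included in the counts, sums and medians of the members but not drawn. The members and the 20 gene lists were chosen with earlier results of these data known. Text names each member past either threshold, the 5 ligands and 5 receptors with the highest mean FPKM (other than unreported genes), the partners of called members and the interferon-induced ligands with their receptor. For other lists, up to 3 genes with the smallest p are named. Ccl25, Ccl11, Cxcl17, Ccr3, Cxcr5, Cxcl13, Xcr1 and Cxcl1 were described further, and receptors summed without Cxcr2 and Cxcr4, after their values were seen.

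Other settings tried were DESeq2 1.42.0 with all groups or 2, edgeR with 2 groups, scaling by library totals or by median-of-ratios factors, a count minimum of 10 in every library or no filter, and limma 3.58.1 on log2(FPKM + 1), log2(FPKM + 0.1) and genes of at least 1 FPKM in 3 libraries. Each rat was also left out in turn. Promoter sequences are from RefSeq tables (GRCr8), with 37 of 51 members matched. Their coordinates are not those of the count files. Tables and plots were made with pandas 2.3.3, numpy 2.4.6 and matplotlib 3.10.9 under Python 3.11.15.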

Additional observations from a re-analysis of the deposited data

How the results depend on the processing

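No paired analysis was possible because separate rats were divided at random into the groups. The replicate number 8, which the groups share, was not read as a pair. Ccl9 in both comparisons with Sham kept its call under all 8 settings that tested it, and Cxcr2 in RE/Ovx against Sham under all 10. Members past the adjusted threshold for NE/Ovx against Sham, 1 in the reported fit, were 3 with DESeq2 on all 9 libraries, 3 with DESeq2 on the 2 groups, 0 with at least 10 counts in each library and 0 with limma on FPKM of at least 1, where Ccl9 was not tested, and 0 to 1 when a rat was left out. Over all genes the calls went from 178 (1.23%) to 998 (6.87%) and 885 (4.89%) with these DESeq2 fits. They were 160 (1.21%) with at least 10 counts and 140 (1.09%) with limma on FPKM of at least 1. For RE/Ovx against NE/Ovx, 0 became 1 with DESeq2 on the 2 groups, which called 0.831% of all genes. For RE/Ovx against Sham, 3 became 1 with limma on FPKM of at least 1, which called 6.86% of all genes, and 1 to 3 without a rat. At the study's thresholds, 8 members for NE/Ovx against Sham were 5 with at least 10 counts and 5 with limma on FPKM of at least 1, and 5 to 8 without a rat. The 2 for RE/Ovx against NE/Ovx were 4 with edgeR on the 2 groups and 4 with limma at either pseudocount, and 1 to 5 without a rat.

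The median of the members for NE/Ovx against Sham, 0.30, was 0.163 with edgeR on the 2 groups, -0.0841 with at least 10 counts, 0.130 with limma on log2(FPKM + 1), 0.0605 with limma on FPKM of at least 1 and 0.0483 to 0.320 without a rat. For RE/Ovx against Sham, 0.31 became -0.0136, 0.143 and 0.128 with at least 10 counts and those 2 limma settings, and 0.138 to 0.372 without a rat. Leaving out a rat reversed the sign of values near 0. Ccr6 in NE/Ovx against Sham ran from -0.435 to 0.0331, the latter without NE/Ovx rat 6. In RE/Ovx against NE/Ovx, Ccl6 ran from -0.0231 to 0.254, below 0 without NE/Ovx rat 6 or RE/Ovx rat 8, and Ccr1 from -0.313 to 0.0205, above 0 without RE/Ovx rat 5. Cx3cl1 ran from -0.0916 to 0.226, below 0 without NE/Ovx rat 6, RE/Ovx rat 5 or RE/Ovx rat 8. Fewer members were tested under the stricter filters, 22 with at least 10 counts and 27 with limma on FPKM of at least 1, and beyond this the cause of these changes was not tested. An exact permutation test of 3 rats against 3 cannot give a p below 0.1, and low counts limit Ccl9, Xcr1 and the members below the filter.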

Other observations

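Calls in the remaining 6 lists were as follows. In NE/Ovx against Sham 2 of 11 tested osteoblast and osteocyte markers rose, Col1a1 by 1.70 and Bglap by 1.72 on the log2 scale, and 2 rose in RE/Ovx against Sham (Col1a1 by 1.74 and Bglap by 1.89, edgeR with Benjamini-Hochberg adjustment). Of 10 marrow stroma markers, 1, Pdgfra, rose in RE/Ovx against Sham by 0.89. Of 10 megakaryocyte and platelet markers, 4 fell in RE/Ovx against Sham, among them F2rl2 by 0.94 and Gp6 by 0.63. None of these 3 lists had a gene past the adjusted threshold for RE/Ovx against NE/Ovx in edgeR, with 0 of each at the study's thresholds. Of 12 erythroid markers, none passed in any comparison in edgeR, and relative to Sham 5 were lower in NE/Ovx and 1 in RE/Ovx at the study's thresholds. Of 6 plasma cell markers, none passed, and at those thresholds 1 was higher and 1 lower in NE/Ovx than in Sham and 1 higher in RE/Ovx than in Sham. Of 10 skeletal muscle genes, none passed the adjusted threshold, and at the study's thresholds 8 were lower in RE/Ovx than in NE/Ovx (median -1.04), 6 lower in RE/Ovx than in Sham and 0 differed between NE/Ovx and Sham.

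Some members below the low-count filter had uneven counts and are named after their values were seen. Ccl25, the ligand of Ccr9, had 7, 0 and 3 counts in Sham rats 12, 7 and 8 and 0 counts in all 6 ovariectomized rats. Ccl11, an attractant of eosinophils, had 27 counts in RE/Ovx rat 8 and 2 to 7 in the other rats. Cxcl17 had 16, 10 and 7 counts in NE/Ovx rats 6, 8 and 9 and 2 to 8 in the other rats. In the edgeR fit without a filter on low counts, Ccl25 was past the study's thresholds in both comparisons with Sham (adjusted p = 0.260 for NE/Ovx and 0.206 for RE/Ovx), Cxcl17 for NE/Ovx against Sham (adjusted p = 0.239) and Ccl11 in none. DESeq2 on the 2 groups without a filter put none of these genes past the study's thresholds.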
